A study of Homo sapiens with 6 samples.

Results

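Retinoic acid is the active form of vitamin A, and 9 genes for making, binding, clearing and sensing it were read here in Huh7, an established cell line from a human liver cancer. They were CYP26A1, CYP26B1, RARA, RARB, RARG, RXRA, CRABP2, DHRS3 and RDH10, represented by 24 of the 54613 non-control probe sets of a whole-genome Affymetrix array. A probe set was taken when its annotation named that gene symbol alone. The group was chosen by the values of CYP26A1, which fell with statin and lay higher with LDL on these same arrays, so the values of CYP26A1 are a description and carry no test. The other 8 genes were added as members of the pathway. Total RNA was taken from cells given 5 µM statin, which blocks cholesterol synthesis, from cells given 120 µg/ml of native low-density lipoprotein (nLDL), which supplies cholesterol, and from vehicle controls. All 3 groups were kept for 24 h in medium with 10% fetal bovine serum, and each had 2 arrays labelled as biological replicates. The serum is a further source of lipoprotein and of retinol, the labels do not name the statin, and neither sterols nor retinoids were measured on these arrays.

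Retinol from the circulation is oxidised in the cell in consecutive steps, first to retinaldehyde and then to retinoic acid. Retinoic acid enters the nucleus, where it binds retinoic acid receptors paired with retinoid X receptors on short repeated DNA elements. Enzymes of the CYP26 family break it down again. CYP26A1 and RARB are textbook targets of these receptors, so that retinoic acid induces the enzyme that removes it. The liver is the main store of vitamin A, kept largely in stellate cells rather than in hepatocytes.

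All 10 hepatocyte markers that were looked up (ALB, AFP and HNF4A among them) lay above a log2 level of 4.23, under which the dimmest 40% of probe sets fell. Of 10 stellate cell markers 4 lay below it, among them LRAT, the enzyme that esterifies retinol for storage, and ACTA2. The mean level of the stellate cell markers was 5.33 on both statin arrays, 5.37 and 5.39 on the nLDL arrays, and 5.28 and 5.38 on the controls. Of 4 endothelial markers 2 lay above that level, with list means of 4.46 and 4.66 on the statin arrays, against 4.39 to 4.49 with nLDL and 4.37 to 4.43 in controls, and of 4 leukocyte markers 3 did, with list means of 5.08 to 5.14 with statin, 5.09 to 5.14 with nLDL and 5.00 to 5.25 in controls. None of these markers passed the test in any comparison. As a check of the treatments, the sterol-responsive genes INSIG1, HMGCS1, SQLE and IDI1 each lay above both controls on both statin arrays and below both controls on both nLDL arrays. INSIG1, for example, had 10.33 and 10.50 with statin, 8.87 and 9.13 with nLDL and 9.83 and 9.89 in controls. The statin arrays stood apart from the rest on the first principal component, at 35.8 and 24.2, against -14.3 and -12.5 for nLDL and -15.9 and -17.3 for controls. They also had a wider gap between the 3′ and 5′ control probe sets of ACTB, 2.13 and 1.92, against 1.62 and 1.54 with nLDL and 1.63 and 1.64 in controls. The same gap for GAPDH was 0.09 and 0.02 with statin, 0.10 and 0.08 with nLDL and 0.08 and 0.07 in controls. Such gaps are used as a sign of RNA quality. With statin the gap was wider for ACTB but not for GAPDH, and whether it reflects RNA quality here was not tested. The wider ACTB gap accompanies every statin comparison below. Its part in them was not tested.

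CYP26A1, which hydroxylates retinoic acid and so starts its clearance, had log2 values of 6.24 and 6.15 on the statin arrays, 8.36 and 8.51 on the nLDL arrays and 7.57 and 7.69 on the control arrays. The 3 groups did not overlap, and both replicates of a group lay close together. On average the level was 6.19 ± 0.06 with statin, 8.43 ± 0.11 with nLDL and 7.63 ± 0.08 in controls (SD, n = 2 each). Statin minus control was -1.44 (SE 0.09), a level 2.71-fold lower, and nLDL minus control was 0.80 (SE 0.09), a level 1.74-fold higher. Statin minus nLDL was -2.24 (SE 0.09), or 4.72-fold lower. Among the brightest probe sets of 15279 genes above the dim level, that of CYP26A1 ranked as number 14 from the lowest for statin against control, as number 1 from the highest for nLDL against control and as number 3 from the lowest for statin against nLDL. These ranks restate the values by which the genes were chosen and carry no test. CYP26A1 has 1 probe set on this array, so no other probe set of the gene could be set beside it. As in any bulk sample, fewer cells with a transcript and less of it in each cell cannot be told apart.

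**Figure D1:**
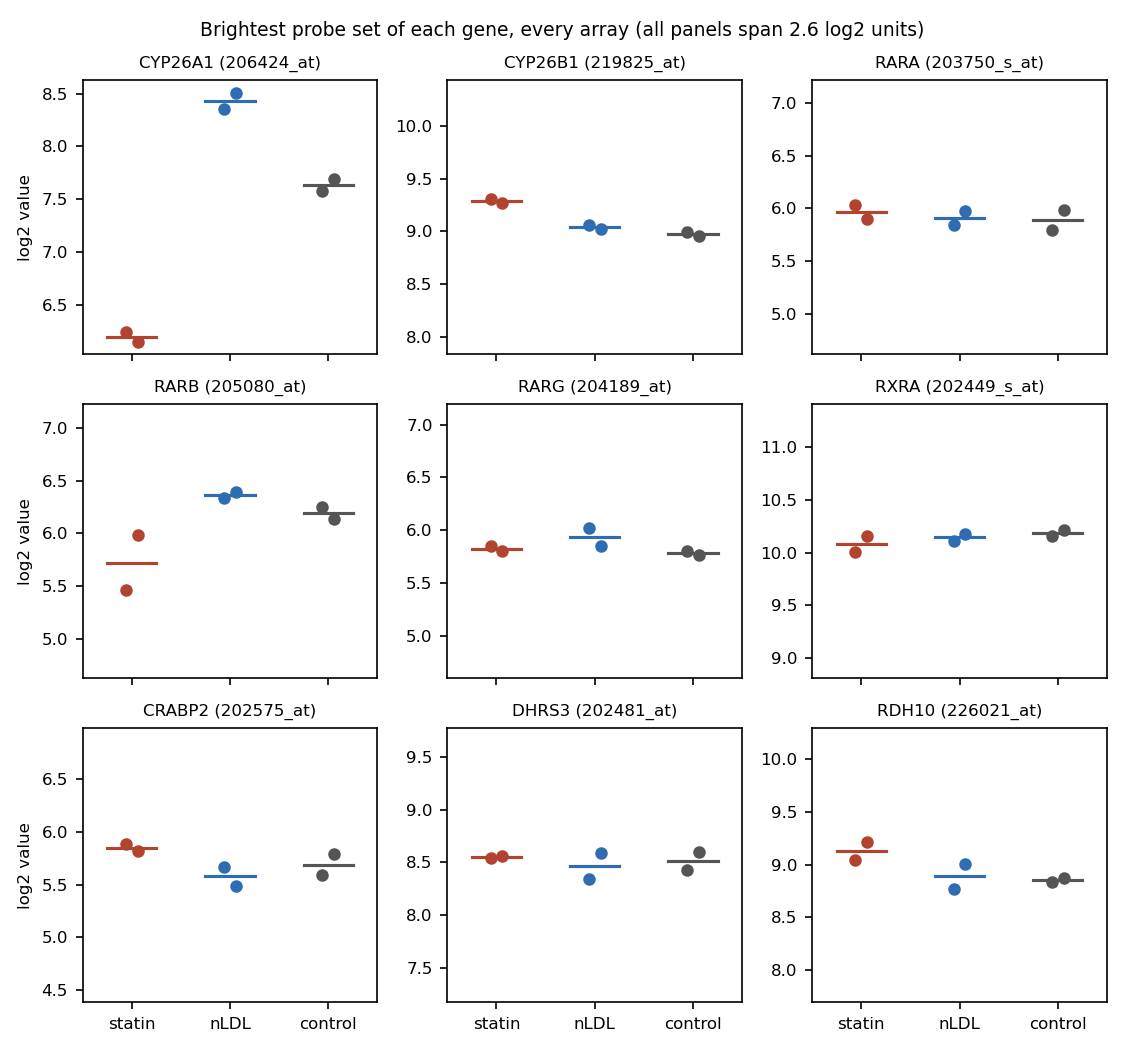
Log2 value of the brightest probe set of each of the 9 genes on every array, with statin, nLDL and control from left to right, points for the 2 arrays of a group and a bar for their mean. All panels span the same range of log2 units, and CYP26A1 is the panel whose groups lie farthest apart, at 6.19, 8.43 and 7.63 on average.

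The promoter windows of the members were read from RefSeq (GRCh38.p14), each from 250 bases before to 50 bases after an annotated transcript start. There were 17 windows for 8 of the genes, and RDH10 was not among them. They were searched on both strands for direct repeats of the 6-base half-site AGGTCA or its variants, which were AGTTCA, further GGTTCA and lastly GGGTCA, in any pairing, with a gap of 5 bases (DR5, the arrangement classically bound by retinoic acid receptors) or of 2 bases (DR2). A DR5 match stood in 2 of the 17 windows, those of CYP26A1 and RARB. Such a match was found in 31 of all 35116 promoter windows (0.0883%). Both genes were already known as targets of these receptors and the half-sites were a fixed list. The shares are therefore a description and carry no test. No member window held a DR2 match, which 14 of all windows held (0.0399%). The elements of both genes differ in the first half-site and in the gap and share the second half-site. They are shown here as read along the strand that carries the repeat, with the half-sites in capitals:
CYP26A1: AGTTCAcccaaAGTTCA
RARB: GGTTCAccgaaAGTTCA
The CYP26A1 element spans chr10:93073803-93073819, on the strand opposite to the gene, from 90 to 74 bases before the downstream of the 2 starts searched. The RARB element spans chr3:25428210-25428226, on the strand of the gene, from 53 to 37 bases before the third of the 4 starts searched. The 100 bases before each of these starts are printed below along the strand of the gene (both on the plus strand), with the same half-sites in capitals, since these are the member promoters in which the repeat was found. They cover chr10:93073793-93073892 and chr3:25428163-25428262.
CYP26A1: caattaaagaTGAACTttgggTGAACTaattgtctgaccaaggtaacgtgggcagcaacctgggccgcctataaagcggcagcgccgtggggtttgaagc
RARB: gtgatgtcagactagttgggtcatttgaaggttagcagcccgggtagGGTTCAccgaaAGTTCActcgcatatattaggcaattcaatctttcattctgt
A match says only that these letters are present in the window, and the arrays do not tell which start was used.

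**Figure D2:**
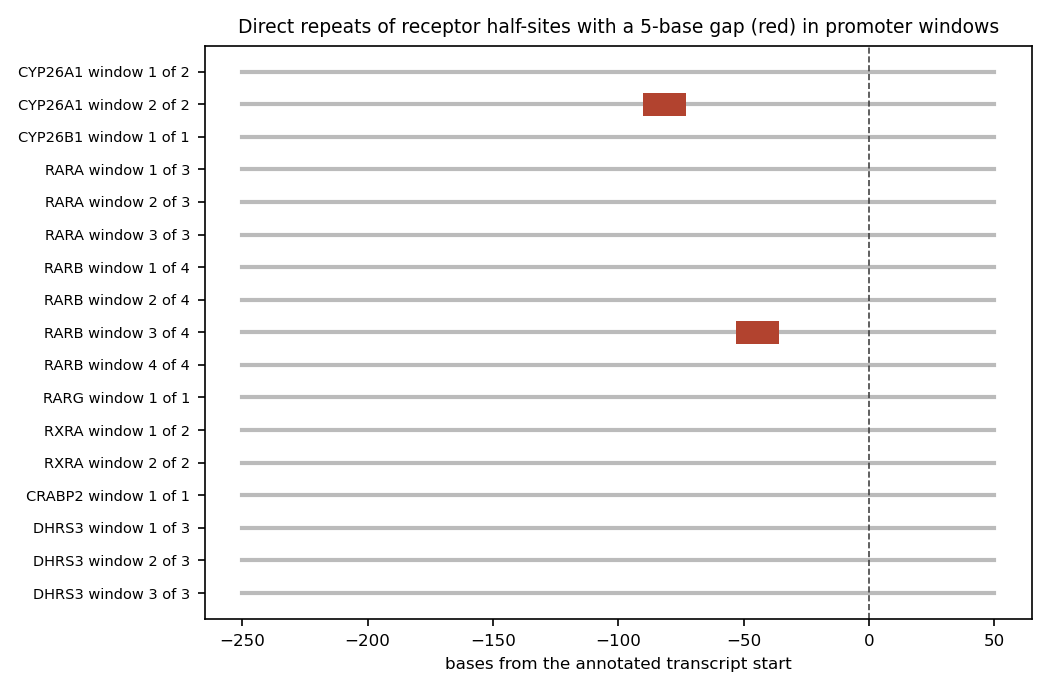
Promoter windows of the members as grey lines, by distance in bases from the annotated transcript start (dashed), with DR5 matches in red drawn to scale. The matches lie 90 to 74 bases before a start of CYP26A1 and 53 to 37 bases before a start of RARB, and the other 15 windows hold none.

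RARB encodes the retinoic acid receptor beta. Its brightest probe set had log2 values of 5.46 and 5.98 with statin, 6.33 and 6.39 with nLDL and 6.25 and 6.14 in controls. The groups did not overlap and lay in the same order as those of CYP26A1, statin lowest and nLDL highest, but the statin arrays were farther apart from each other than any other pair. Statin minus control was -0.47 (SE 0.16, limma adjusted p = 0.182), nLDL minus control was 0.17 (SE 0.16, limma adjusted p = 0.935) and statin minus nLDL was -0.64 (SE 0.16, limma adjusted p = 0.104), so no difference passed the test at 0.05. Without statin array 1 statin minus control was -0.21, and without statin array 2 it was -0.73. Without single arrays statin minus nLDL ran from -0.90 to -0.38, and -0.90 was the value without statin array 2. On all arrays statin minus nLDL passed with a trended and robust prior (limma adjusted p = 0.00997).

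A second RARB probe set above the dim level had 4.12 and 4.28 with statin, 4.54 and 4.57 with nLDL and 4.40 and 4.57 in controls. Here the statin arrays again lay below all others, while nLDL and control overlapped. The difference between statin and control was -0.28 (SE 0.10, limma adjusted p = 0.181). The other 3 RARB probe sets lay within the dimmest 40%, and their statin minus control differences ran from -0.21 to 0.25 with no common direction. RARB has several annotated starts, and the files do not say which transcripts each probe set reads.

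RDH10, which oxidises retinol to retinaldehyde in the first step towards retinoic acid, was the gene among the other 8 with a probe set that passed the test for statin against control, as 2.62% of all probe sets did. That probe set, the second brightest of its 4, had log2 values of 8.37 and 8.37 with statin, 8.04 and 8.08 with nLDL and 7.85 and 7.96 in controls. The groups did not overlap, with statin highest and control lowest. It rose by 0.46 with statin (SE 0.08, limma adjusted p = 0.0357), and nLDL minus control was 0.16 (SE 0.08, limma adjusted p = 0.835). Statin minus nLDL was 0.30 (SE 0.08, limma adjusted p = 0.116). The call was lost in each fit without a single array (limma adjusted p of 0.0729 to 0.212), while the difference stayed between 0.40 and 0.52. The other 3 RDH10 probe sets did not pass but lay above both controls on both statin arrays, at 0.28, 0.29 and 0.18. The brightest of them had 9.05 and 9.22 with statin, 8.77 and 9.01 with nLDL and 8.83 and 8.88 in controls.

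DHRS3 reduces retinaldehyde back to retinol and so works against RDH10. Its probe set had 8.54 and 8.56 with statin, 8.35 and 8.59 with nLDL and 8.43 and 8.60 in controls. All groups overlapped, and statin minus control was 0.04 (SE 0.11, limma adjusted p = 0.895), a value that was -0.05 without control array 1. CRABP2 carries retinoic acid from the cytosol to its receptors. Its probe set had 5.88 and 5.82 with statin, 5.67 and 5.49 with nLDL and 5.59 and 5.79 in controls. The statin arrays lay above the controls by 0.16 (SE 0.10, limma adjusted p = 0.457), a difference that ran from 0.0625 to 0.25 without single arrays, and nLDL overlapped with control.

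CYP26B1, the close relative of CYP26A1 with the same substrate, lay on the other side of the controls with statin. Its brightest probe set had 9.31 and 9.27 with statin, 9.06 and 9.02 with nLDL and 8.99 and 8.96 in controls. The 3 groups did not overlap, and statin was highest. Statin minus control was 0.32 (SE 0.07, limma adjusted p = 0.0823) and nLDL minus control was 0.06 (SE 0.07, limma adjusted p = 0.957). The statin difference did not pass over all probe sets, but passed once the dimmest 40% were left out (limma adjusted p = 0.034) and with a trended and robust prior (limma adjusted p = 0.00295). It did not pass with the replicate block (limma adjusted p = 0.106), the compared groups alone (0.129) or the other normalizations (0.0591 to 0.115). The methods' t-test called it at its own thresholds but not after adjustment. Without single arrays the difference ran from 0.30 to 0.33. The dimmer CYP26B1 probe set had 5.65 and 5.35 with statin, 5.57 and 5.42 with nLDL and 5.16 and 5.36 in controls, with overlap between statin and control.

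No probe set of the other receptors passed the test. RARA, the retinoic acid receptor alpha, has 5 probe sets, of which 4 were above the dim level. Its brightest had 6.03 and 5.90 with statin, 5.84 and 5.97 with nLDL and 5.80 and 5.98 in controls, with all groups overlapping. At another RARA probe set statin lay at 5.52 and 5.50, nLDL at 5.29 and 5.33 and control at 5.22 and 5.28, which gave a statin minus control difference of 0.26 (SE 0.08, limma adjusted p = 0.134). RARA probe sets thus ran from 0.07 to 0.30 with statin, and none passed.

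RARG, the retinoic acid receptor gamma, had 5.85 and 5.80 with statin, 6.02 and 5.85 with nLDL and 5.80 and 5.77 in controls at its brightest probe set. The nLDL arrays lay above the controls by 0.15 (SE 0.09, limma adjusted p = 0.861), which ran from 0.0616 to 0.24 without single arrays, and statin overlapped with control. Its 2 other probe sets had statin minus control differences of 0.21 and 0.34, that of 0.34 at a probe set within the dimmest 40%, and neither passed. RXRA, the retinoid X receptor alpha that pairs with all 3 of these receptors, had 10.00 and 10.15 with statin, 10.11 and 10.18 with nLDL and 10.16 and 10.21 in controls. Statin minus control was -0.11 (SE 0.09, limma adjusted p = 0.554) and ran from -0.18 to -0.0312 without single arrays, and its second probe set lay at 0.14, so the probe sets of RXRA differed in sign.

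**Figure D3:**
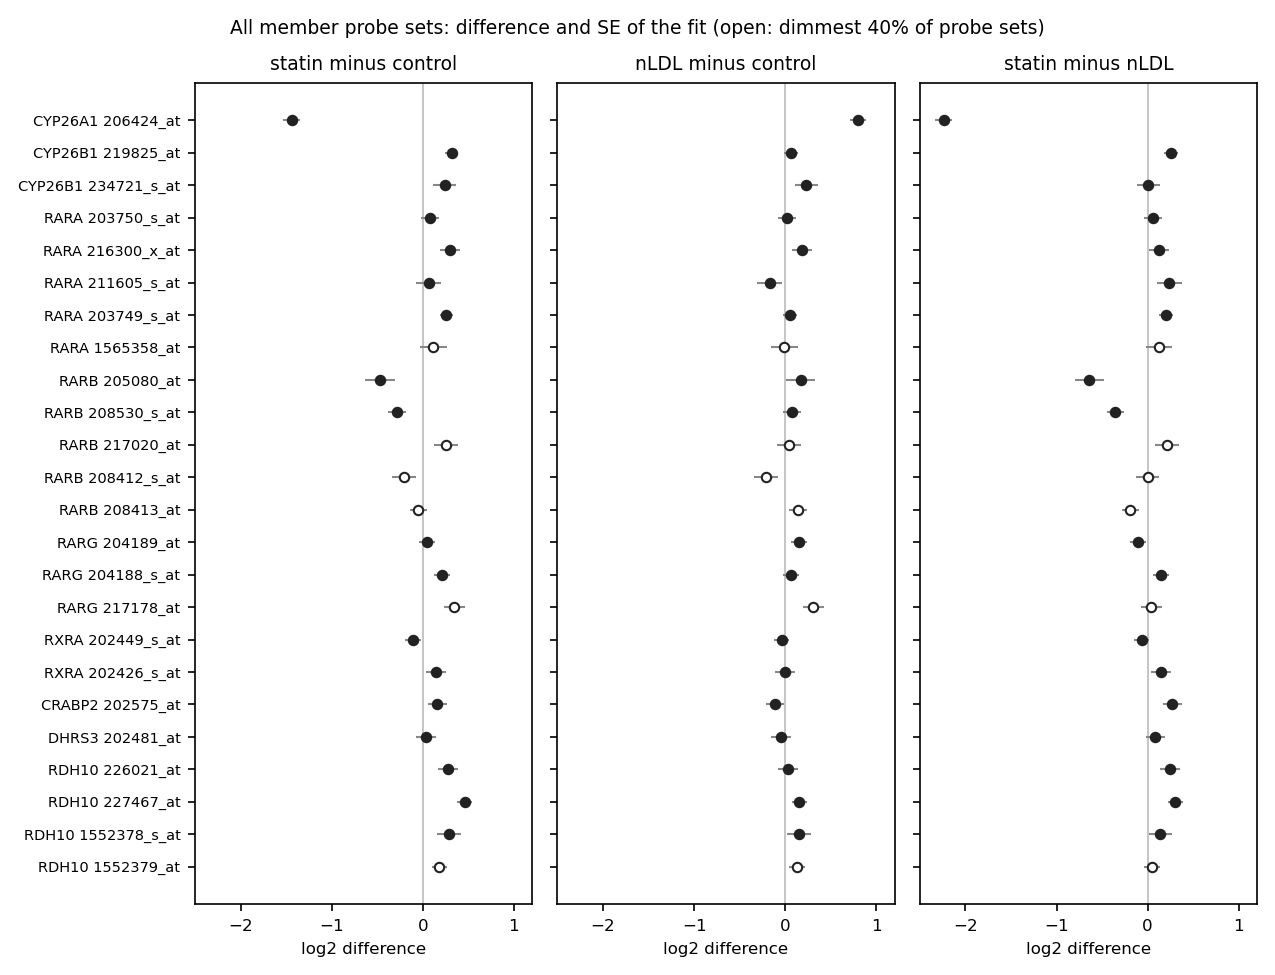
Log2 difference and SE of the fit for all 24 probe sets of the 9 genes in the 3 comparisons, with open circles for those in the dimmest 40%. CYP26A1 lies at -1.44, 0.80 and -2.24, and the other 23 probe sets lie between -0.47 and 0.46 for statin minus control.

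Counted over the 23 probe sets of the other 8 genes, 1 was higher with statin than in controls at an adjusted p under 0.05, none was lower and 22 did not pass. Many of the 23 read the same gene, so counts over them are not counts of independent genes. Over all probe sets of the array 2.62% passed in this comparison, 0.956% higher and 1.66% lower. The statin arrays lay above both controls at 12 of the 23 and below both at 3, where over the whole array 26.4% lay above and 23.6% below. The median difference of the 23 was 0.16, against 0.02 over all probe sets. An unadjusted p under 0.05 was found in limma for 8 of the 23 and for 10271 of all 54613 probe sets. At the brightest probe set of each of the 8 genes the median was 0.06, against 0.02 over all 21299 genes.

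With nLDL none of the 23 passed, as over the whole array (0%), where limma made no call at an adjusted p under 0.05. At an unadjusted p under 0.05 limma counted 1 of the 23 and 3357 of all 54613. The nLDL arrays lay above both controls at 11 of the 23 and below both at 0, where over the whole array 17.8% lay above and 18.2% below. These 11 read CYP26B1, RARA, RARB, RARG and RDH10, each at more than 1 probe set. Of the brightest probe sets, those of CYP26B1, RARB and RARG lay above both controls and those of the other genes overlapped. The median difference was 0.06, against -0.0011 over all probe sets. Between statin and nLDL none of the 23 passed, 6 had an unadjusted p under 0.05 in limma (8903 of all probe sets), and 2.44% of all probe sets passed after adjustment, 1.04% higher and 1.41% lower. Statin lay above nLDL at 7 of the 23 and below it at 3, all 3 of them probe sets of RARB, where over the whole array 23.4% lay above and 21.8% below. The dimmest of these 3, at -0.19, is within the dimmest 40%. The remaining RARB probe sets, also that dim, overlapped between statin and nLDL, at 0.21 and -0.0009. The comparisons with control share their control arrays and are therefore not independent of each other.

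Across the 6 arrays the brightest probe set of RARB correlated with CYP26A1 at Pearson's r = 0.85, that of CYP26B1 at -0.85, CRABP2 at -0.81 and RDH10 at -0.72. The 4 others lay between -0.31 and 0.49. These values describe 3 treatment groups of 2 arrays and carry no p. Among 696 genes above the dim level that differed by at least 0.5 between statin and nLDL, the 5 whose pattern was most like that of CYP26A1 were ACOT12 (r = 0.99), RFX6 (0.99), PRKCE (0.99), CXCL10 (0.99) and SMC2 (0.98). ACOT12 is an acetyl-CoA hydrolase, RFX6 a transcription factor, PRKCE a protein kinase, CXCL10 a chemokine and SMC2 a condensin subunit. Their differences were smaller than those of CYP26A1. RFX6 had 5.72 and 5.48 with statin, 6.55 and 6.63 with nLDL and 6.24 and 6.27 in controls, and SMC2 had 8.71 and 8.76 with statin, 9.27 and 9.26 with nLDL and 9.14 and 9.12 in controls.

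Of 33 other measured genes of retinoid transport and metabolism, 2 rose with statin and 31 did not pass, where 3.75% of all genes passed at their brightest probe set, 1.49% higher and 2.26% lower. AKR1B10, an aldo-keto reductase that reduces retinaldehyde, had 5.82 and 5.99 with statin, 4.77 and 4.93 with nLDL and 4.72 and 4.97 in controls. It rose by 1.06 with statin (SE 0.12, limma adjusted p = 0.0101), and nLDL and control overlapped. RBP2, a cellular retinol-binding protein best known from the intestine, had 11.66 and 11.64 with statin, 11.30 and 11.38 with nLDL and 11.23 and 11.16 in controls. It rose by 0.45 with statin (SE 0.08, limma adjusted p = 0.0352). The list had a median of 0.07, against 0.02 over all genes. AKR1B10 lost its call without either control array or either statin array (limma adjusted p of 0.0576 to 0.0846), and RBP2 in every fit without a single array.

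In the comparison of statin with nLDL, AKR1B10 was higher by 1.06 (SE 0.12, limma adjusted p = 0.00968) and ADH1B, an alcohol dehydrogenase that oxidises retinol, was lower by 0.79 (-0.79, SE 0.13, limma adjusted p = 0.0302), and 31 of the 33 did not pass. Over all genes 3.51% passed, 1.54% higher and 1.97% lower. ADH1B had 4.49 and 4.79 with statin, 5.37 and 5.48 with nLDL and 4.84 and 5.09 in controls. Its groups lay in the order of those of CYP26A1, without overlap. ADH1A and ADH1C lay above both controls on both statin arrays, at 0.44 and 0.42 (limma adjusted p of 0.219 and 0.145). With statin ADH4, ADH5 and ADH7 lay at -0.02, 0.09 and -0.14 from control. The call of ADH1B was lost in every fit without a single array, and that of AKR1B10 without either nLDL array or either statin array. With nLDL against control ADH1B had the largest difference of the list (0.46, limma adjusted p = 0.798), and no gene passed. As the mean over its probe sets ADH1B had 0.26 for nLDL minus control, -0.0872 for statin minus control and -0.35 for statin minus nLDL, of which the last passed (limma adjusted p = 0.033). LRP2, an endocytic receptor that takes up retinol-binding protein, lay at -0.47 with statin (SE 0.10, limma adjusted p = 0.0552), and ALDH1A1, which makes retinoic acid from retinaldehyde, at -0.01. LRP2, ALDH1A1 and the alcohol dehydrogenases other than ADH1B were chosen after their values were seen.

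Of 28 receptor partners and cofactors, NR1I2, the xenobiotic receptor PXR, which also pairs with RXRA, rose with statin and 27 did not pass, where over all genes 3.75% passed. It had 7.73 and 7.77 with statin, 6.52 and 6.93 with nLDL and 6.79 and 6.92 in controls. The difference from control was 0.89 (SE 0.14, limma adjusted p = 0.0268), and that from nLDL was 1.03 (SE 0.14, limma adjusted p = 0.0176). The call against control was lost without either control array or either statin array (limma adjusted p of 0.0928 to 0.162), and that against nLDL without nLDL array 1 or either statin array (limma adjusted p of 0.0788 to 0.109). The list had a median of 0.04 with statin and -0.02 with nLDL. RORA, a nuclear receptor of the liver and other tissues, had the largest nLDL minus control difference of the list, -0.26 (limma adjusted p = 0.924) at a dim probe set, and 0.11 without nLDL array 1.

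Of 29 measured genes known to rise with retinoic acid in cells or embryos, PCK1, the gluconeogenic enzyme, rose with statin and 28 did not pass, where over all genes 3.75% passed. Its probe set is within the dimmest 40% of the array, with 4.32 and 4.45 with statin, 3.42 and 3.61 with nLDL and 3.36 and 3.75 in controls. The rise was 0.83 (SE 0.14, limma adjusted p = 0.035) and was lost in every fit without a single array. The statin arrays lay below both controls for 13 of the 29 and above both for 7, where over all genes 25.1% lay below and 30.3% above, and the median was -0.04, against 0.02 over all genes. HOXA5, a homeobox gene, had 6.56 and 6.54 with statin, 7.01 and 6.98 with nLDL and 6.82 and 6.74 in controls. Its groups did not overlap and lay in the order of those of CYP26A1. Statin minus nLDL was -0.44 (SE 0.08, limma adjusted p = 0.0369), a call that was lost in every fit without a single array. Statin minus control was -0.23 (limma adjusted p = 0.179), and nLDL minus control, the largest of the list, was 0.22 (limma adjusted p = 0.798). PCK1 was higher with statin than with nLDL by 0.87 (SE 0.14, limma adjusted p = 0.0302), a call that was lost without either nLDL array or either statin array, and 27 of the 29 did not pass, where over all genes 3.51% passed.

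**Figure D4:**
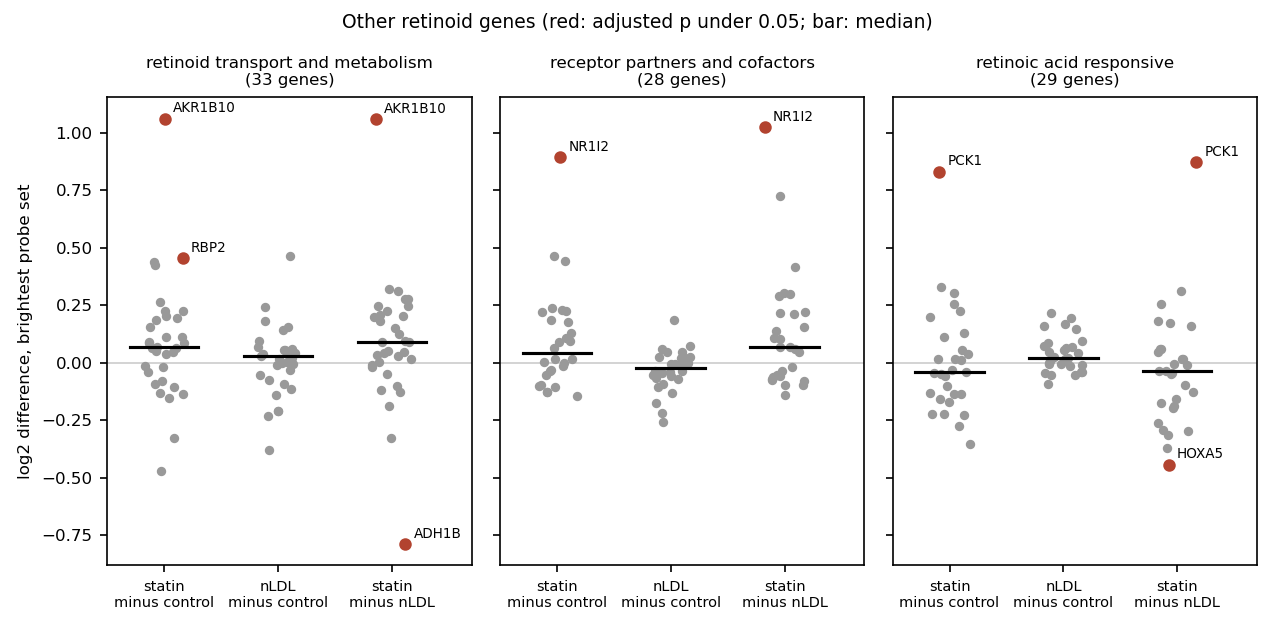
Log2 difference of the brightest probe set of each gene in 3 lists of other retinoid genes (33, 28 and 29 genes), for statin minus control, nLDL minus control and statin minus nLDL. Red points passed at an adjusted p under 0.05 and are named, bars are medians, and no gene passed for nLDL minus control.

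The genes whose windows hold a DR5 match were also looked up on the arrays, after the values of CYP26A1 and RARB were known. Of 27 such genes other than these, 14 had a probe set with 1 symbol, 9 of them above the dim level. None passed for statin against control or for nLDL against control, and their statin minus control differences ran from -0.38 to 0.22, with a median of -0.08 against 0.02 over all genes. TRIM31, a ubiquitin ligase, was lower with statin than with nLDL (-0.51, SE 0.08, limma adjusted p = 0.0299), with -0.25 for statin minus control and 0.26 for nLDL minus control, neither of which passed. The TRIM31 call was not rerun without single arrays.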

How the data were processed

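Total RNA of Huh7 cells was hybridised to Human Genome U133 Plus 2.0 arrays, 2 for each of 3 groups. The authors used GeneSpring GX 11.5 for robust multi-array averaging. What they deposited are the resulting log2 values, 1 per probe set and array. Arrays have no counting depth; their small number sets the precision, and p-values measure only the spread between these arrays. Values came from the deposited table with sample names. A second deposited table gave the probe set annotation. Its 6 value columns carry no sample label and were not used as samples.

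After 62 control probe sets were left out, 3 group means were fitted to 54613 probe sets in limma (version 3.58.1, under R 4.3.3) with every array in the model. Its moderated test was two-sided (functions lmFit and eBayes; 3 residual and 4.08 prior degrees of freedom), with Benjamini-Hochberg adjustment over all of them and a threshold of 0.05. A permutation test of 2 against 2 arrays cannot go below an exact two-sided p of 0.333 and was not run. Of 43383 probe sets with 1 symbol, 42702 had their Entrez number in the RefSeq table (GRCh38.p14), through which the symbols of the lists were updated. A gene stands for its probe set with the highest mean among those with 1 symbol.

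The members, the lists and the tests were chosen with earlier results of these data known. Named genes were all members, up to 4 genes past the test in each list and comparison or else the largest difference, and the 5 genes most like CYP26A1. The fit was repeated with a block for the replicate number, with quantile normalization again, centring on medians or cyclic loess, without the dimmest 40%, under a prior that was trended and robust, within compared groups only, on the mean of a gene's probe sets and without each array in turn, and the methods' t-test was run (unadjusted, with a fold of 1.1, and adjusted). Some items of these lists are not reported here.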

Additional observations from a re-analysis of the deposited data

How the results depend on the processing

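The differences of CYP26A1, by whose values the 9 genes were chosen, kept their direction under every alternative. Without single arrays they lay between -1.50 and -1.38 for statin minus control and 0.72 and 0.88 for nLDL minus control. For statin minus nLDL they lay between -2.32 and -2.16. The gene was picked for these differences on the same arrays, so the ranges are a description and carry no test. Over all probe sets limma called 1429 for statin against control, 0 for nLDL against control and 1334 for statin against nLDL. With its own thresholds (unadjusted p of 0.05, fold of 1.1) the methods' t-test called 6191, 1982 and 5100, and after Benjamini-Hochberg adjustment 0, 0 and 2. The trended and robust prior gave 4954, 58 and 4464 calls, leaving out the dimmest 40% gave 2745 for statin against control and 2367 for statin against nLDL, and the compared groups alone gave 607 and 458. Without single arrays the count ranged from 45 to 607 for statin against control and from 45 to 458 for statin against nLDL, and stayed at 0 for nLDL. The replicate number as a block gave 820 for statin against control, and 0 of the member probe sets, since that of RDH10 no longer passed (limma adjusted p = 0.0574). Deviations of samples with the same number were nearly unrelated (r of 0.02 to 0.09 between groups), and the main fit did not pair them. The labels do not say whether equal numbers mark a pairing, and this r cannot exclude one.

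Of the 23 probe sets of the other 8 genes, 1 passed for statin against control. This count was 2 without the dimmest 40%, 3 with the trended and robust prior, 3 in the methods' t-test, 0 in that test after adjustment, 0 with the compared groups alone and 0 in all fits without a single array. For nLDL against control it was 0 in limma and 2 in the methods' t-test, and for statin against nLDL it was 0 in limma, 3 with the trended and robust prior, 4 in the methods' t-test and 0 to 1 without single arrays. The genes of the other lists that passed numbered 4 for statin against control, all higher (0 to 2 without single arrays, 4 higher and 2 lower as means over probe sets) and 5 for statin against nLDL (0 to 3 without single arrays, 9 as means over probe sets).

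Small differences changed sign. The mean over probe sets was 0.0181 for RXRA with statin against control, and 0.0393 for RXRA and 0.0265 for RARG with statin against nLDL. Without single arrays RARA ranged from -0.0164 to 0.17, -0.0761 to 0.11 and -0.0066 to 0.13 for statin against control, nLDL against control and statin against nLDL. DHRS3 ranged from -0.0503 to 0.12, -0.17 to 0.0726 and -0.0369 to 0.21. With nLDL against control RDH10 ranged from -0.0861 to 0.15, AKR1B10 from -0.12 to 0.13, NR1I2 from -0.34 to 0.0786, PCK1 from -0.24 to 0.16 and RORA from -0.63 to 0.11, and with statin against nLDL RXRA ranged from -0.14 to 0.0094. As means over probe sets RARB had -0.15 for statin against control and -0.19 for statin against nLDL, and NR1I2 had 0.60 and 0.68. The causes were not tested.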
